A study of Homo sapiens with 6 samples.

Results

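The CLK and SRPK splicing kinases are the cdc2-like kinases CLK1, CLK2, CLK3 and CLK4, the SR protein kinases SRPK1 and SRPK2, and the related kinases DYRK1A and PRPF4B. These 8 genes were chosen by their symbols, without use of any measured value, and all 8 were found among the 38100 genes of the count table and of the expression table. HK2 cells, which are a widely used human line derived from the epithelium of the proximal tubule and carry a wild-type genotype label, were sequenced as 3 samples that received a control adenovirus (AdCtrl) and 3 samples that received an adenovirus for SIRT4 (AdSIRT4, written AdSirt4 in the sample titles). SIRT4 is a sirtuin best known from mitochondria. All samples, the controls included, were stimulated with TGF-β1, so that the comparison is between adenoviruses under TGF-β1 and holds no unstimulated cells. The control virus carried an empty vector by the study's methods, and counts on SIRT4 do not separate the copy on the virus from the cells' own gene. The cell line label gives another number for each sample, while every title says HK2.

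SR proteins are RNA-binding proteins that help the spliceosome find exons, and their serine- and arginine-rich tails work only when they carry the right amount of phosphate. SRPKs phosphorylate SR proteins mostly in the cytoplasm, which lets the importer TNPO3 carry them into the nucleus, and CLKs phosphorylate them further in the nucleus and release them from nuclear speckles. DYRK1A, a relative of the CLKs, also phosphorylates splicing factors, and PRPF4B is a kinase of the spliceosome itself that acts on proteins of the tri-snRNP.

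SIRT4 was read first as a check of the labels. It had 31, 47 and 57 counts in AdCtrl replicates 1, 2 and 3 and 1996, 7995 and 6827 counts in AdSIRT4 replicates 1, 2 and 3, so that all labels matched. Total counts lay between 41537353 and 85684748 per sample, and the kinases had between 388 counts (CLK4 in AdSIRT4 replicate 1) and 11168 counts (SRPK1 in AdSIRT4 replicate 3), so that none was near the detection limit. AdSIRT4 replicate 1 stood apart from the other libraries: limma voom gave it a quality weight of 0.0795, where the other samples had 0.984 to 2.92. The fold changes of the kinases and of the pathway genes named are therefore given with and without this library. Of 13 markers of proximal tubule and epithelium, 8 reached 1 FPKM (fragments scaled by transcript length and library size) in every sample, among them KRT8, KRT18, PAX8 and GGT1, while the defining markers CUBN, LRP2, AQP1 and ANPEP stayed under 0.1 FPKM in every sample. Of 11 markers of other kidney cells, 8 were under 0.1 FPKM in every sample, and CD68 (17.0 to 22.2 FPKM) and LUM (4.76 to 6.70 FPKM) were present. The summed FPKM of the epithelial list was 830 to 876 in AdCtrl and 806 to 992 in AdSIRT4 samples, and that of the other list 22.6 to 25.1 and 23.9 to 29.1. The study states that n in its cell experiments means technical replicates. If this covers the sequenced samples, the SDs and p-values measure only the spread between these samples.

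CLK1 and CLK4 are near relatives, and both genes hold an exon 4 that some annotated transcripts skip. The sequences of this exon are shown because the expression tables are per gene and cannot tell transcripts with and without it apart, and because they let a reader see how alike both genes are at the base level. They were taken from GENCODE v29 transcripts on GRCh38, are coding sequence read 5′ to 3′ on the minus strand, and have the bases that differ between both genes in capitals.
CLK1 exon 4, chr2:200860125-200860215: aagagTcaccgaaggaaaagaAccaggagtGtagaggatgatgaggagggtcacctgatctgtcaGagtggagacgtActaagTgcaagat
CLK4 exon 4, chr5:178617344-178617434: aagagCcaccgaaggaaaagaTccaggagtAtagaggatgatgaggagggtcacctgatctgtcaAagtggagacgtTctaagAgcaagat
The exons differed at 6 of 91 bases (93.4% identical), and the longest stretch shared without a difference was 34 bases. The length of 91 bases is no multiple of 3, so that leaving the exon out shifts the reading frame. Exon 4 was skipped, with the exons on both sides joined, in 1 annotated transcript of CLK1, which is marked for nonsense-mediated decay, and in 2 of CLK4. CLK1 (chr2:200853009-200864744, minus strand) had 15 annotated transcripts, of which 4 were protein coding (1192 to 2026 bases), 8 retained an intron (435 to 3208 bases) and 2 were marked for nonsense-mediated decay (1664 and 1682 bases). CLK4 (chr5:178602664-178630615, minus strand) also had 15 annotated transcripts, with 4 protein coding, 7 with a retained intron and 3 marked for decay.

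The other genes lie on 5 further chromosomes of GRCh38. CLK2 spans chr1:155262868-155278491 (minus strand), CLK3 chr15:74598500-74645414 (plus strand), SRPK1 chr6:35832966-35921342 (minus strand) and SRPK2 chr7:105110704-105399308 (minus strand). DYRK1A spans chr21:37365573-37526358 (plus strand) and PRPF4B, which RefSeq names PRP4K, chr6:4021267-4064983 (plus strand). Coding genes on the opposite strand share 3.43% of the exon bases of CLK3 (EDC3), 3.96% of SRPK1 (LHFPL5) and 1.55% of SRPK2 (KMT2E). The library protocol does not name a step that keeps the strand, so reads in these stretches cannot be assigned to one gene of each pair. Pseudogenes named CLK2P1, CLK3P2 and SRPK2P exist in the annotation and were not rows of the count table, and reads that fit both a gene and its pseudogene are uncertain.

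Levels of different kinases were compared per length, in FPKM. SRPK1 was the most abundant in AdCtrl cells (25.3 ± 0.560 FPKM, SD, n = 3), followed by CLK1 (24.2 ± 1.25 FPKM) and CLK2 (22.6 ± 2.38 FPKM), and the samples of these neighbours overlapped. PRPF4B came next (17.5 ± 0.242 FPKM), then SRPK2 (12.1 ± 0.618 FPKM) and CLK3 (10.9 ± 0.479 FPKM). SRPK2 and CLK3 lay close, with the lowest AdCtrl sample of SRPK2 at 11.6 FPKM and the highest of CLK3 at 11.4 FPKM. CLK4 (3.64 ± 0.0587 FPKM) and DYRK1A (3.08 ± 0.227 FPKM) were the least abundant. The AdCtrl means of the 8 kinases stood between the 43.7th and the 85.9th percentile of the tested genes. In AdSIRT4 cells SRPK1 remained first at 24.4 ± 4.37 FPKM (SD, n = 3), and 2 pairs of neighbours changed places: CLK2 (21.3 ± 0.873 FPKM) stood above CLK1 (20.7 ± 3.52 FPKM), and DYRK1A (3.13 ± 0.316 FPKM) above CLK4 (3.03 ± 0.265 FPKM). The samples of each such pair overlapped in AdSIRT4 cells. Those of CLK1 and CLK2 also overlapped in AdCtrl cells, so their change of order is within the spread. In AdCtrl cells every CLK4 sample (3.58 to 3.69 FPKM) lay above every DYRK1A sample (2.91 to 3.34 FPKM). When TMM-scaled CPM were instead divided by the length of all annotated exons of a gene, 4 of 8 kinases took another place, with PRPF4B at place 2, CLK1 at 4, DYRK1A at 6 and CLK3 at 8 in AdCtrl cells. The order across genes therefore depends on the length used. Comparisons of a single kinase between groups do not set one gene against another, whereas the balance of CLKs and SRPKs given below does.

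**Figure D1:**
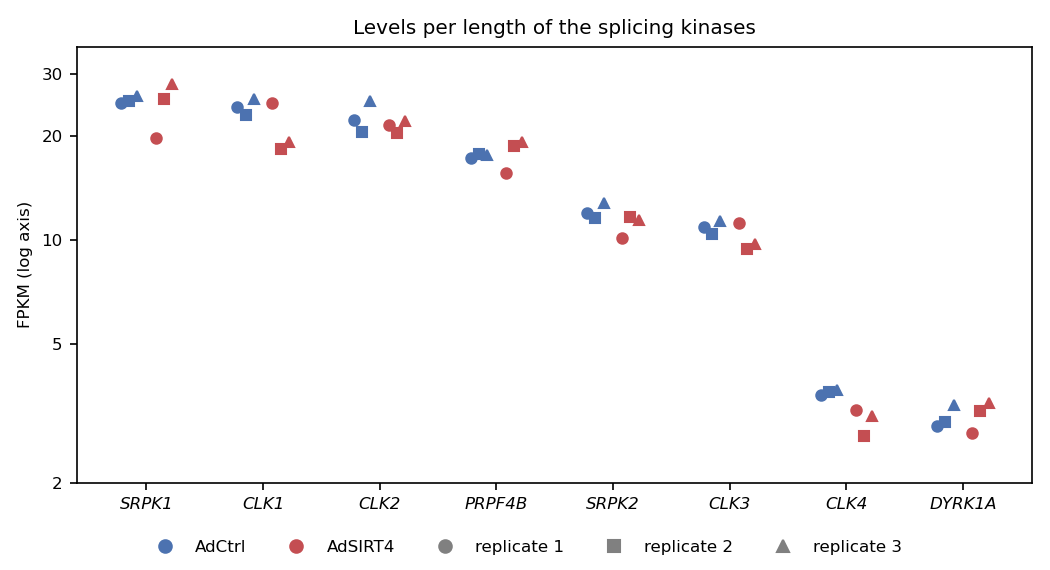
FPKM (log axis) of the 8 kinases in each sample, with genes ordered by their AdCtrl mean, AdCtrl samples in blue and AdSIRT4 samples in red, and the replicate number given by the shape of the point. SRPK1, CLK1 and CLK2 share the top with 18.3 to 28.2 FPKM, and CLK4 and DYRK1A lie lowest with 2.73 to 3.69 FPKM.

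The question of the group comparison was whether SIRT4 changes these kinases under TGF-β1. With all 6 samples, no change of the kinases was detected in edgeR's quasi-likelihood test. There, 0 of 8 passed an adjusted p of 0.05, where 0.0113% of 17720 tested genes did, and 0 of 8 had an unadjusted p under 0.05, where 7.93% of the genes did. DESeq2 also called 0 of 8. The log2 fold change (AdSIRT4 over AdCtrl) was below 0 for 6 kinases and above 0 for DYRK1A and PRPF4B, with a median of -0.063 beside 0.021 over all tested genes. In TMM-scaled CPM the groups did not overlap, with AdSIRT4 lower, for CLK4 and SRPK2. These are 2 of 8 kinases, where the share over all tested genes was 9.77%. The values below are CPM, counts scaled by library size after TMM normalization, in AdCtrl replicates 1, 2 and 3 and then in AdSIRT4 replicates 1, 2 and 3.

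CLK1, which phosphorylates SR proteins in the nucleus and controls the splicing of its own transcript, had 55.2, 54.9 and 55.9 CPM in AdCtrl and 63.4, 46.8 and 49.1 CPM in AdSIRT4 samples. The AdCtrl samples were nearly identical, while AdSIRT4 replicate 1 lay above and the other AdSIRT4 samples below all of them. Its log2 fold change was -0.060 (standard error 0.130, 95% interval -0.37 to 0.25, adjusted p = 0.884 from edgeR, two-sided exact permutation p = 0.7). The interval corresponds to a change between -22.5% and 18.8%.
CLK2, a nuclear kinase that also acts in insulin and fasting signals in the liver, had 52.7, 50.3 and 58.0 CPM in AdCtrl and 54.0, 48.2 and 51.1 CPM in AdSIRT4 samples. The groups overlapped, and the highest value was an AdCtrl one. Its log2 fold change was -0.072 (standard error 0.0980, 95% interval -0.30 to 0.16, adjusted p = 0.832 from edgeR).
CLK3 had 23.0, 22.4 and 23.0 CPM in AdCtrl and 25.5, 19.8 and 20.1 CPM in AdSIRT4 samples. It showed the same arrangement as CLK1, with AdSIRT4 replicate 1 above and the others below the AdCtrl samples. Its log2 fold change was -0.066 (standard error 0.123, 95% interval -0.36 to 0.22, adjusted p = 0.869 from edgeR).
CLK4, the closest relative of CLK1, had 10.2, 10.7 and 10.1 CPM in AdCtrl and 9.96, 7.74 and 8.70 CPM in AdSIRT4 samples. Every AdSIRT4 sample lay below every AdCtrl sample, in CPM and in FPKM, although AdSIRT4 replicate 1 came close to them. CLK4 had the largest fold change of the 8 kinases, at -0.23 on the log2 scale (standard error 0.124, 95% interval -0.52 to 0.060). Its adjusted p in edgeR's quasi-likelihood test was 0.701. The exact permutation p was 0.1, the smallest that 3 samples against 3 allow.

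SRPK1, the kinase that loads phosphate onto SR proteins before they enter the nucleus, had 123.0, 127.7 and 123.5 CPM in AdCtrl and 105.0, 125.3 and 137.4 CPM in AdSIRT4 samples. Here AdSIRT4 replicate 1 was the lowest sample and AdSIRT4 replicate 3 the highest, so that the AdSIRT4 samples lay on both sides. The log2 fold change was -0.025 (standard error 0.118, 95% interval -0.30 to 0.25, adjusted p = 0.947 from edgeR).
SRPK2, the other SR protein kinase of the list, had 51.3, 50.5 and 52.6 CPM in AdCtrl and 46.6, 49.1 and 48.4 CPM in AdSIRT4 samples. All AdSIRT4 samples lay below all AdCtrl samples in CPM, by a small margin, while in FPKM the groups overlapped. The log2 fold change was -0.10 (standard error 0.0825, 95% interval -0.29 to 0.095, adjusted p = 0.764 from edgeR, exact permutation p = 0.1).
DYRK1A, a dose-sensitive kinase encoded on chromosome 21, had 52.9, 56.3 and 58.1 CPM in AdCtrl and 51.9, 57.5 and 59.6 CPM in AdSIRT4 samples. The groups covered almost the same range. Its log2 fold change was 0.015 (standard error 0.0952, 95% interval -0.21 to 0.24, adjusted p = 0.961 from edgeR).
PRPF4B, the spliceosomal kinase, had 117.2, 118.3 and 115.6 CPM in AdCtrl and 108.8, 127.9 and 132.6 CPM in AdSIRT4 samples. AdSIRT4 replicate 1 lay below all AdCtrl samples and the other AdSIRT4 samples above them, the reverse of CLK1. The log2 fold change was 0.073 (standard error 0.105, 95% interval -0.17 to 0.32, adjusted p = 0.838 from edgeR).

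**Figure D2:**
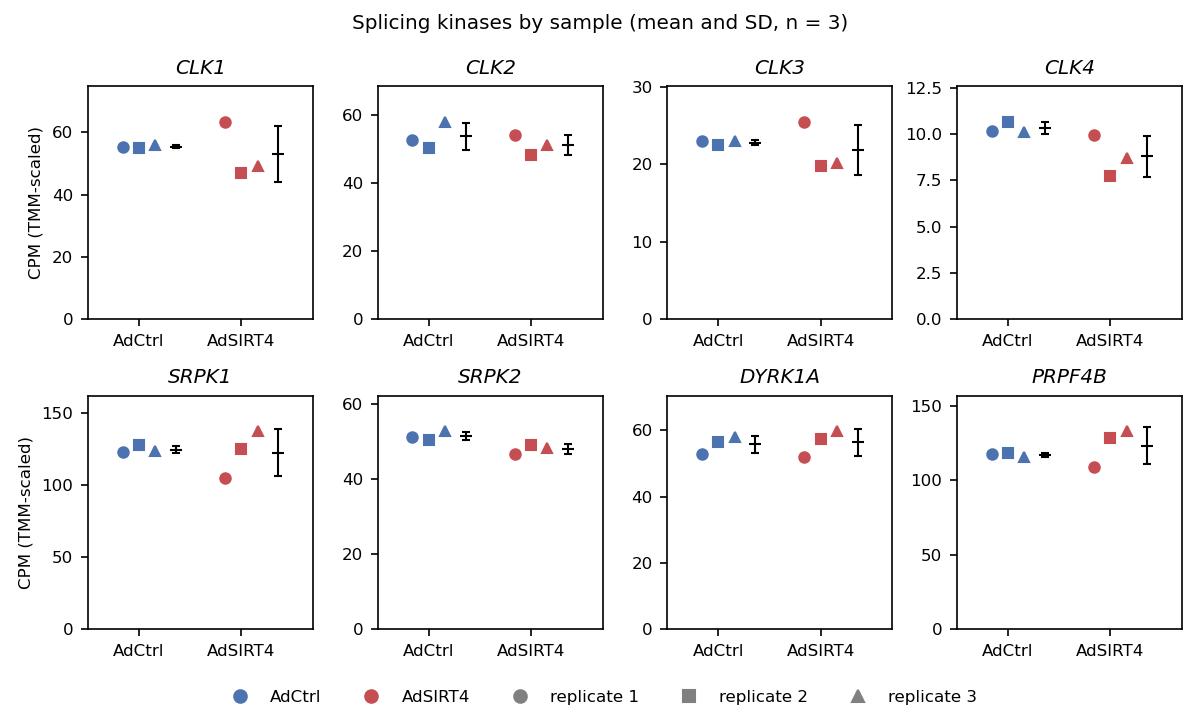
TMM-scaled CPM of each kinase by sample, with AdCtrl in blue and AdSIRT4 in red, the replicate number as the shape of the point and black bars for mean and SD (n = 3 per group). AdSIRT4 replicate 1 (red circle) is the highest AdSIRT4 sample for all 4 CLKs and the lowest for the other 4 kinases, and the groups are apart for CLK4 and SRPK2.

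Without AdSIRT4 replicate 1, CLK1 passed the threshold as lower in AdSIRT4 cells. CLK1 fell by 0.21 on the log2 scale (standard error 0.0517, 95% interval -0.32 to -0.097) with an adjusted p of 0.0354 from edgeR, a change of -13.6%. CLK1 was the 1 kinase of 8 that passed the threshold, where 3.34% of genes passed as lower and 6.71% in either direction in that fit. CLK4 stood at -0.33 (standard error 0.0937, adjusted p = 0.0583 from edgeR) and CLK3 at -0.20 (standard error 0.0662, adjusted p = 0.0997). Neither passed the threshold. PRPF4B stood at 0.15 (standard error 0.0500, adjusted p = 0.0973), and CLK2 (-0.12), SRPK2 (-0.084), SRPK1 (0.070) and DYRK1A (0.066) had adjusted p-values between 0.295 and 0.510. In these 5 samples the CPM of the groups did not overlap, with AdSIRT4 lower, for CLK1, CLK3, CLK4 and SRPK2, beside 20.7% of all tested genes. With AdSIRT4 higher this held for PRPF4B, beside 21.0%. Where limma voom kept all samples and weighted them by quality, CLK1 (log2 fold change -0.22, adjusted p = 0.0380) and CLK4 (-0.37, adjusted p = 0.0202) passed as lower, 2 of 8 kinases beside 4.52% of all tested genes. The call of CLK1 without AdSIRT4 replicate 1 was lost when each library's trend on gene length was also removed (log2 fold change -0.18, adjusted p = 0.0599 from edgeR). It was also lost in limma on log2(FPKM + 1) (-0.35, standard error 0.0628, adjusted p = 0.158). That scale understates the change of low values, but the difference of CLK1 was larger there than in edgeR. Both fits that lost the call were chosen after the data had been seen.

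**Figure D3:**
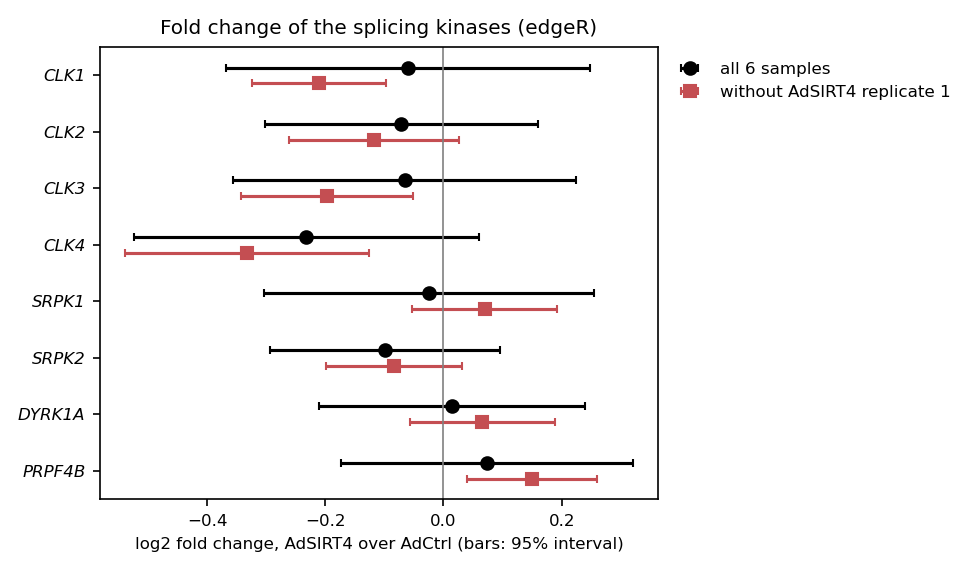
Log2 fold change of AdSIRT4 over AdCtrl for each kinase from edgeR, with the 95% interval as a horizontal bar, for all 6 samples (black circles) and without AdSIRT4 replicate 1 (red squares). All intervals from 6 samples include 0, and without that library those of CLK1, CLK3 and CLK4 lie below 0 and that of PRPF4B above 0.

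The deviation of AdSIRT4 replicate 1 followed gene length. Relative to the mean of the other AdSIRT4 samples, its log2 CPM was higher by 0.40 for CLK1, 0.12 for CLK2, 0.35 for CLK3 and 0.28 for CLK4, the genes with the shortest transcripts of the list. It was lower for the longer genes, with differences of -0.064 for SRPK2, -0.32 for SRPK1, -0.26 for PRPF4B and -0.17 for DYRK1A. The largest deviation of an AdCtrl sample from the mean of the other AdCtrl samples was 0.020 for CLK1 and lay between 0.020 and 0.17 over the 8 kinases. The trend of this library over all tested genes, taken at each kinase's length, was 0.26, 0.27, 0.33 and 0.16 for CLK1, CLK2, CLK3 and CLK4 and -0.077, -0.17 and -0.36 for SRPK2, SRPK1 and PRPF4B. CLK1, CLK4, SRPK1 and, by little, CLK3 deviated from 0 by more than this trend, and CLK2, SRPK2 and PRPF4B by less. DYRK1A departed most from the trend, which was -0.98 at its length of 17.9 kb (98.6th percentile of the tested genes). The part of the length trend in the kinases' differences between groups was not tested beyond the fits that removed it. With all samples, edgeR then gave log2 fold changes of -0.12 for CLK1, -0.12 for CLK2, -0.14 for CLK3 and -0.27 for CLK4. It gave 0.015 for SRPK1, -0.077 for SRPK2, 0.15 for PRPF4B and 0.23 (standard error 0.194) for DYRK1A, which had 0.015 before. Of these kinases, 0 passed an adjusted p of 0.05.

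**Figure D4:**
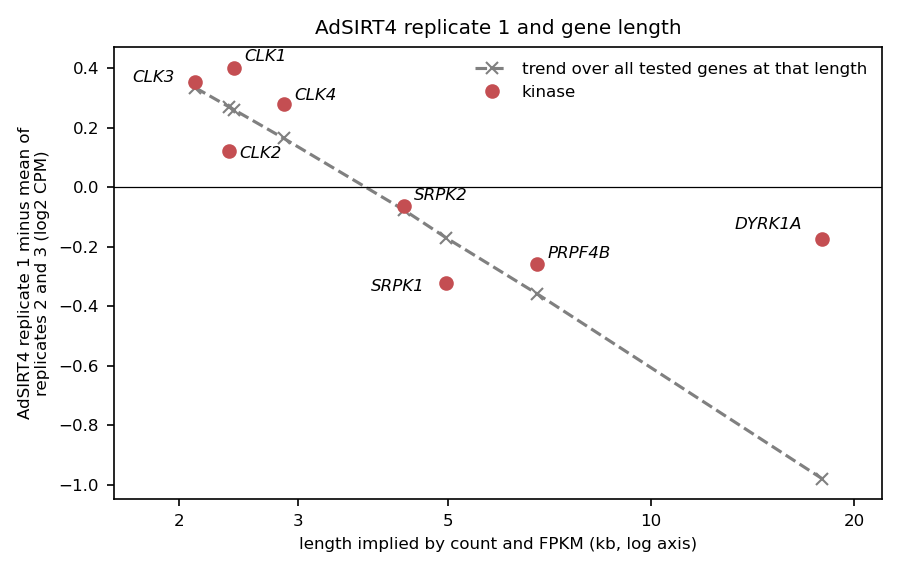
Log2 CPM of AdSIRT4 replicate 1 minus the mean of AdSIRT4 replicates 2 and 3 for each kinase (red points) against the length implied by its count and FPKM (kb, log axis), with grey crosses for that library's trend over all tested genes at the same lengths, joined by a dashed line. The 4 CLKs at 2.11 to 2.86 kb lie above 0 and the longer kinases below 0, with DYRK1A at 17.9 kb far above the trend.

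The arrangement of the kinases over samples was compared by likeness to CLK1. As a measure of likeness, the root mean square (RMS) difference of centred log2 CPM over the 6 samples was used, with no test. CLK3 was the third nearest of all tested genes to CLK1 (RMS 0.022), after DDB2 (0.020), a protein of DNA damage recognition, and SNRPA (0.022), a protein of the U1 snRNP. STK24, a serine/threonine kinase (0.029), and PPOX, an enzyme of heme synthesis (0.029), followed. All 5 shared the high value in AdSIRT4 replicate 1, for example SNRPA with 61.7, 63.7 and 64.8 CPM in AdCtrl and 73.8, 53.6 and 55.7 CPM in AdSIRT4 samples. CLK4 ranked 1259 and CLK2 1568 in likeness to CLK1, while SRPK2 ranked 4332 and SRPK1 8851. CLK2 was nearer to SRPK2 (RMS 0.082) than to CLK1 (0.108), so that the kinases did not split cleanly. SRPK1, DYRK1A and PRPF4B were nearest to each other, with RMS differences of 0.060 to 0.070. Since these distances rest on the same 6 libraries, they describe the libraries as much as the genes.

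The balance between CLKs and SRPKs was compared per length. The summed FPKM of the 4 CLKs divided by that of both SRPKs was 1.65, 1.56 and 1.69 in AdCtrl and 2.04, 1.37 and 1.36 in AdSIRT4 samples. AdSIRT4 replicate 1 lay above and the other AdSIRT4 samples below the AdCtrl range (1.64 ± 0.0665 against 1.59 ± 0.387, SD, n = 3, two-sided exact permutation p = 0.8). The CLKs made up 51.6, 50.0 and 52.4% of the FPKM of all 8 kinases in AdCtrl and 55.8, 46.3 and 46.5% in AdSIRT4 samples. Within the CLKs, CLK1 made up 39.8, 40.0 and 38.8% in AdCtrl and 40.8, 35.9 and 35.4% in AdSIRT4 samples. These sums and shares depend on the lengths behind FPKM. For CLK1 the ratio of count to FPKM was higher in AdSIRT4 samples, as given below. The ratio of CLK1 to CLK4 counts, which is not per length, was higher in every AdSIRT4 sample. It was 6.37, 6.05 and 5.65 against 5.43, 5.15 and 5.53. In FPKM the ratio of these genes overlapped between groups, and AdSIRT4 replicate 3 had the lowest of all samples. Both ratios were formed after the single values were known and were not tested.

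Counts and FPKM of a gene do not have to move together. Dividing the count by FPKM and library size gives the length that both tables imply, which can move where a gene has transcripts of several lengths whose mix changes or is estimated differently. The submitters' processing notes name StringTie, which estimates transcripts, but whether both tables came from it is not given in the sources used here. The ratio was scaled so that the AdCtrl mean of each gene is 100% and the median gene of each library is the same. It was compared over the 12350 genes that reached 100 counts in all samples. For CLK1 it was 99.1, 101.5 and 99.3% in AdCtrl and 103.1, 112.0 and 113.4% in AdSIRT4 samples. The AdSIRT4 samples all exceeded the AdCtrl samples, and AdSIRT4 replicate 1 was the one nearest to them. AdSIRT4 replicates 2 and 3, with the highest ratios, were also the deepest libraries, and whether depth moved the ratio was not tested. The difference was 9.53 percentage points (two-sided exact permutation p = 0.1, the smallest possible here), and 1.14% of the genes had a higher one. In bases, the implied length of CLK1 was 2295, 2414 and 2247 in AdCtrl and 2403, 2580 and 2605 in AdSIRT4 samples, before scaling by the library median. When single samples were left out, the difference ran from 7.60 to 12.7 percentage points. Which transcripts of CLK1 lie behind it was not tested, since the tables are per gene.

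With this higher ratio, the FPKM of CLK1 in AdSIRT4 cells stood lower than its counts did. FPKM was 24.3, 23.0 and 25.5 in AdCtrl and 24.8, 18.3 and 19.2 in AdSIRT4 samples. Limma on log2(FPKM + 1) gave a difference of -0.23 on that scale, where edgeR on the counts gave -0.060, and neither passed the threshold.
DYRK1A had a lower ratio in every AdSIRT4 sample (94.9, 98.6 and 98.1%) than in every AdCtrl sample (99.85, 100.8 and 99.3%). CLK2 was also lower in AdSIRT4, with 97.3, 99.3 and 98.3% against 99.3, 100.4 and 100.3%, where the nearest samples of both groups differed by under 0.1 percentage points. The differences were -2.79 percentage points for DYRK1A and -1.73 for CLK2 (exact permutation p = 0.1 for each). Thus the groups were apart as higher for 1 of 8 kinases, beside 5.15% of the genes compared, and as lower for 2 of 8, beside 6.04%. CLK3, CLK4 and SRPK1 stayed within 0.1 percentage points of 100% in every sample, and SRPK2 between 99.3 and 100.8%, so that for them counts and FPKM carried the same information. PRPF4B ran from 96.2 to 104.5% with overlapping groups. In 51 genes of the pathway, the groups were apart as higher for 0 and as lower for 1, and 0 had a difference as large as that of CLK1. The largest was that of the SR protein SRSF4, at 8.60 percentage points. SRSF4 had 97.1, 99.5 and 103.5% in AdCtrl and 94.5, 116.1 and 115.3% in AdSIRT4 samples. It thus stood above CLK1 in AdSIRT4 replicates 2 and 3 and below it in AdSIRT4 replicate 1.

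**Figure D5:**
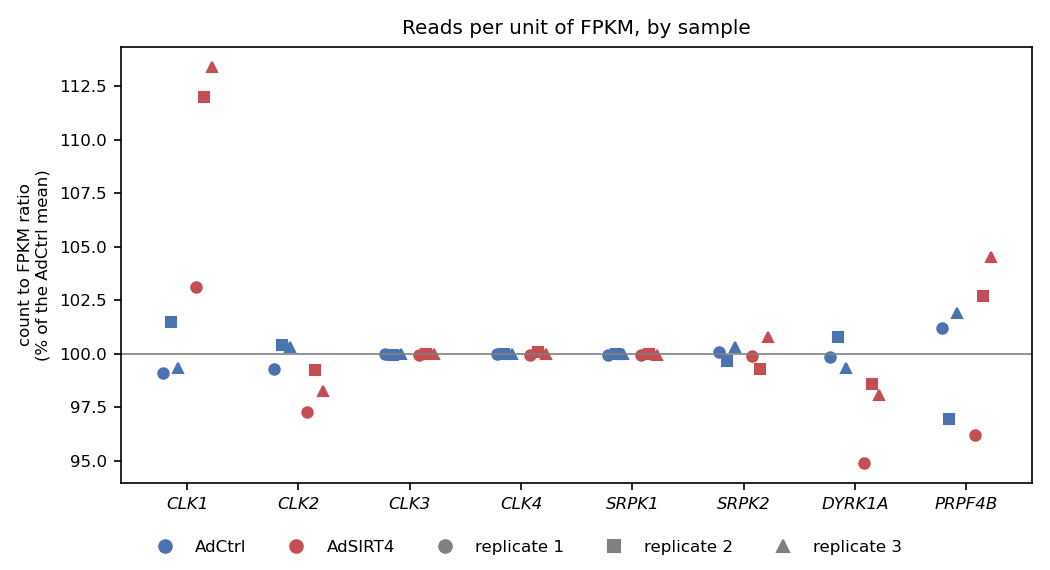
Count divided by FPKM for each kinase and sample, in percent of the AdCtrl mean after scaling by the library median, with AdCtrl in blue and AdSIRT4 in red and the replicate number as the shape of the point. CLK1 reaches 112.0 and 113.4% in AdSIRT4 replicates 2 and 3, while CLK3, CLK4 and SRPK1 stay at 100% in all samples.

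The substrates and partners of these kinases were read from 4 lists, which hold 53 genes with 51 tested. In edgeR with all samples, 0 of 51 passed an adjusted p of 0.05, beside 0.0113% of all tested genes. An unadjusted p under 0.05 was found for 3 of 51, beside 7.93% of all tested genes. All 3 were SR proteins with higher values in AdSIRT4 cells. The log2 fold change was above 0 for 34 and below 0 for 17 of the 51 genes, with a median of 0.087 beside 0.021 over all tested genes. Without AdSIRT4 replicate 1, the median of the 4 lists was 0.043.
Among the 14 SR and TRA2 proteins, the substrates of the CLKs and SRPKs, 13 had a log2 fold change above 0 (median 0.23, and 0.12 without AdSIRT4 replicate 1), and 7 had groups apart as higher, beside 9.66% of all tested genes. SRSF6 had 195.3, 200.1 and 200.6 CPM in AdCtrl and 301.1, 245.2 and 249.5 CPM in AdSIRT4 samples, SRSF3 had 306.1, 313.1 and 270.9 against 619.8, 401.4 and 372.8 CPM, and SRSF2 had 212.1, 215.1 and 193.9 against 367.8, 242.1 and 239.4 CPM. In each of them AdSIRT4 replicate 1 was the highest sample, and the others also lay above the AdCtrl samples. Their adjusted p from edgeR was 0.498, 0.545 and 0.619, and without AdSIRT4 replicate 1 it was 0.00677 for SRSF6, 0.0116 for SRSF3 and 0.0515 for SRSF2, with smaller log2 fold changes of 0.31, 0.38 and 0.21 in place of 0.42, 0.65 and 0.45.
Of 15 SR-related proteins, the importer TNPO3 among them, 11 lay above 0 and 4 below (median 0.11), with 0 called. The smallest p-values belonged to PNN (log2 fold change 0.23), an exon junction and speckle protein, LUC7L (0.31), a relative of a U1 snRNP protein, and U2AF1 (0.42), the small U2AF subunit, whose reads can be shared with a near-identical gene copy. Without AdSIRT4 replicate 1 these values were 0.19 for PNN, 0.12 for LUC7L and 0.16 for U2AF1.
Of 16 other kinases of splicing factors and their families, 14 were tested, 11 of them below 0 and 3 above (median -0.071), with 0 called and 5 with groups apart as lower, beside the 9.77% of all tested genes. HIPK3 (-0.24), HIPK1 (-0.28) and HIPK2 (-0.45), homeodomain-interacting kinases related to the DYRKs, had the smallest p-values, and for HIPK2 AdSIRT4 replicate 1 stood at 126.7 CPM where the other AdSIRT4 samples had 300.7 and 297.0 CPM and the AdCtrl samples 317.3 to 344.1 CPM. Without that library the log2 fold changes were -0.10 for HIPK3, -0.11 for HIPK1 and -0.15 for HIPK2.
Of 8 phosphatase genes, the regulatory subunits PPP1R8 and PPP1R10 among them, 7 lay above 0 and 1 below (median 0.071), with 0 called. PPM1G (0.14), PPP2CB (0.17) and PPP2CA (0.14) had the smallest p-values. Without AdSIRT4 replicate 1 they stood at 0.030, -0.089 and -0.055, so that PPP2CB and PPP2CA turned direction, and the median of the list was -0.063.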

How the data were processed

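Poly(A) RNA of 6 samples was sequenced. The authors deposited whole-number counts per gene without normalization, and a second table whose unit was inferred to be FPKM from the deposited values: both tables implied a length that was the same in all samples within 5% for 11942 of 17511 tested genes with a length in all samples. The submitters' processing notes name fastp 0.21.0, HISAT2 2.1.0, StringTie 2.1.5, DESeq2 1.30.1 and hg38. Which program made the counts is not given in the sources used here. Groups and replicate numbers were taken from the sample titles.

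Counts were filtered with filterByExpr (minimum count 10), scaled with TMM and compared with edgeR 4.0.16 in R 4.3.3 (robust quasi-likelihood test, Benjamini-Hochberg adjustment over all tested genes, threshold 0.05). Alternatives were DESeq2 1.42.0, RLE factors, other count filters, a replicate block, removal of each library's length trend (lowess span 0.3), limma 3.58.1 on log2(FPKM + 1) and log2(FPKM + 0.1), voom with quality weights and each sample left out. The main edgeR fit, the replicate block, the length trend removal, DESeq2, voom and limma on log2(FPKM + 1) were tested on simulated data. The other alternatives, among them the fits with a sample left out, were not. Single values were also compared with two-sided exact permutation tests.

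Deviations of samples with the same replicate number correlated across genes (0.178, 0.159 and 0.176, against -0.188 to 0.0298 for other pairs). Deviations from a group mean cancel within the group, so that high values for pairs of the same number lower those of the other pairs. The contrast is therefore at most a weak hint that the numbers pair the samples, and it was not tested. The main fit and the permutation tests took the samples as unpaired, and pairing entered only in the fits with a replicate block. No library copied another (chi-square per gene between replicates 9.36 to 213). All kinases, the check gene SIRT4, 3 members of each pathway list with the smallest p where fewer than 3 were called, and the 5 genes nearest to CLK1 were named by rule, and the pathway genes and markers came from lists. The kinases, lists and tests were chosen with earlier results of these data known. Gene models came from GENCODE v29 (GRCh38).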

Additional observations from a re-analysis of the deposited data

How the results depend on the processing

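Over 20 alternatives, the log2 fold changes of CLK2, CLK4 and SRPK2 stayed below 0 and that of PRPF4B above 0, and the replicate block changed no kinase's call. The adjusted p over all settings ran from 0.0354 to 0.987 for CLK1 and from 0.0202 to 0.971 for CLK4. Kinases called numbered 0 except for 2 with voom weights and 0 to 1 with a sample left out, where the call came without AdSIRT4 replicate 1. Genes called numbered 2 with all samples, 212 in DESeq2, 5 with every gene of at least 1 count, 4 with at least 10 counts in every sample, 1 with the replicate block, 12 with the length trend removed and 6 with both. In limma, 0 were called on log2(FPKM + 1), 1 on log2(FPKM + 0.1), 5 with a mean FPKM of at least 1, 0 with the replicate block and 1685 by voom with quality weights. Leaving out a sample gave 0 to 1227, the highest without AdSIRT4 replicate 1, and without it 5 in limma on FPKM and 1386 with the length trend removed. Pathway genes called numbered 0 except for 1 in DESeq2, 3 with voom weights, 0 to 2 with a sample left out and 5 without AdSIRT4 replicate 1 with the length trend removed. SRPK1 turned above 0 with the length trend removed (0.015), the block with length trend removed (0.012), voom (0.034), and without AdSIRT4 replicate 1 in limma on FPKM (0.078) and with the length trend removed (0.062, where DYRK1A turned to -0.051). With single samples left out, the log2 fold changes ran from -0.21 to 0.029 for CLK1, -0.20 to 0.0052 for CLK3, -0.11 to 0.070 for SRPK1 and -0.028 to 0.066 for DYRK1A. CLK1 and CLK3 lay above 0 without AdSIRT4 replicate 2, SRPK1 above 0 without AdSIRT4 replicate 1, and DYRK1A below 0 without AdCtrl replicate 1 or AdSIRT4 replicate 3. The level order changed for 4 kinases with annotated exon lengths. The cause of these changes was not tested. Counts per kinase were at least 388. The standard error of CLK1 was 0.130 with all samples and 0.0517 without AdSIRT4 replicate 1, and that of SRPK1 0.118 and 0.0557.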
